A study of Homo sapiens with 12 samples.

Results

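The genes described here are 39 human genes of DNA replication, deoxynucleotide synthesis and G1/S cyclin control, chosen by name from a fixed list and matched by Ensembl identifier to 39 of the 60660 identifiers in the table. They were followed through 4 groups of 3 RNA-seq libraries from dH1f, a human fibroblast line derived from H1 embryonic stem cells. Cells carried the lentiCRISPRv2 vector with a control guide that has no target (NT) or with a guide that cuts MRG15 (KO), whose gene symbol is MORF4L1, and RNA was taken before OSKM (day 0) or on the sixth day of OSKM (day 6). OSKM is the reprogramming factor set OCT4, SOX2, KLF4 and MYC. All KO libraries carry the same guide code, and the labels do not say that replicates were separate cultures, so p-values measure the spread between these libraries, which may be technical. No day 6 culture without OSKM is among the groups, so time in culture and OSKM cannot be told apart.

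Replication starts with licensing: the origin recognition complex, CDC6 and CDT1 load the MCM helicase ring onto DNA in G1. In S phase CDC45 and the GINS complex switch the helicase on, polymerases copy both strands on the sliding clamp PCNA, and ribonucleotide reductase and thymidylate synthase supply deoxynucleotides. Cyclin D opens the way by inactivating the retinoblastoma protein, which frees E2F factors to transcribe cyclin E and many of these genes. Fibroblasts that reprogram are known to shorten G1 and divide faster.

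Levels below are estimated normalised read counts, computed back from the deposited log2-scale values, and differences are on that log2 scale with their standard error from limma. A gene was called when its Benjamini-Hochberg adjusted p over all 14858 genes tested was below 0.05. Estimated depth was 17.85 to 22.19 M reads per library. The targeted gene MORF4L1 checked the labels: its mean fell from 7773 to 1338 counts on day 0 and from 6956 to 1019.9 on day 6 (adjusted p = 3.42e-13 and 8.36e-14). The 11 fibroblast markers summed to 93277 to 98686 CPM (counts scaled to the same library total) in NT and 84390 to 89414 in KO on day 0, and to 41414 to 43462 in NT and 16137 to 17052 in KO on day 6, mostly from FN1, COL1A1 and COL1A2. On day 0, 2 of the 11 were higher and 4 lower in KO (18.2% and 36.4%, against 7.42% and 10.7% of all genes). On day 6, 10 were lower (90.9%, against 19.2%). DCN had mean counts of 902 in NT and 1497 in KO on day 0. From day 0 to day 6, S100A4 rose from 3266 to 8994 in NT and from 2849 to 8644 in KO. The 9 pluripotent cell markers summed to 88.8 to 96.6 and 84 to 90.1 on day 0, and to 931 to 944 and 1091 to 1157 on day 6, mostly from PODXL. The 9 epithelial markers summed to 437 to 480.0 and 429 to 437 on day 0, and to 2338 to 2473 and 1917 to 2014 on day 6. They split on day 6: of 7 tested, 2 were higher and 3 lower in KO (28.6% and 42.9%, against 17.7% and 19.2% of all genes). KRT8 had mean counts of 12989 in NT and 18302 in KO and EPCAM 92.9 and 192. KRT14 had 14732 and 4056, KRT16 5366 and 1697, and KRT17 3013 and 528.5. Of 12 blood, endothelial and neural markers, 6 were tested, and all 6 rose from day 0 to day 6 in NT and 5 in KO, where 33.6% and 37.6% of all genes rose. KDR, an endothelial receptor, had mean counts of 27.2 and 61.2 in NT and KO on day 0 and 769 and 756 on day 6, and MAP2, a neuronal microtubule protein, 219, 198, 708 and 1058. The blood marker PTPRC had mean counts of 3.83, 15.45, 25.3 and 67.9 in NT and KO on day 0 and NT and KO on day 6. The blood and neural markers CD3E, HBB and SOX1 were below 3 counts in every group mean. The list summed to 103 to 117, 144 to 154, 334 to 344 and 409 to 435 CPM in the same order, mostly from TUBB3. The part of these shifts in cell state in the results below was not tested. In bulk RNA, more cells in S phase and more RNA per cell cannot be told apart.

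The group means of the replication genes stepped up in 1 order, lowest in NT fibroblasts, higher in KO fibroblasts, higher again in NT cells under OSKM and highest in KO cells under OSKM. That order held for the means of 35 of the 39 genes, and 37 had their highest mean in KO cells on day 6. It counts every step in the means, called or not, and the step from KO on day 0 to NT on day 6 was not tested. The share of all genes in that order was not counted. Together the 39 genes took 1459 to 1517 CPM in NT and 1831 to 1870 in KO on day 0, and 2405 to 2471 in NT and 3061 to 3155 in KO on day 6. The 4 ranges do not overlap. CCND1 alone supplied 626 to 639, 729 to 743, 460.0 to 486 and 342 to 369 of these, and without it the sums were 825 to 891, 1089 to 1141, 1929 to 1985 and 2692 to 2813. CPM divides by library totals, which fell over the groups: 23.28 to 23.68, 21.95 to 22, 19.04 to 19.21 and 17.96 to 18.2 M normalised counts. On the deposited scaling, the 39 genes summed to 34562 to 35311, 40293 to 41072, 46200 to 47044.5 and 55191 to 56813 counts. Those ranges do not overlap either, and their steps are smaller than in CPM.

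**Figure D1:**
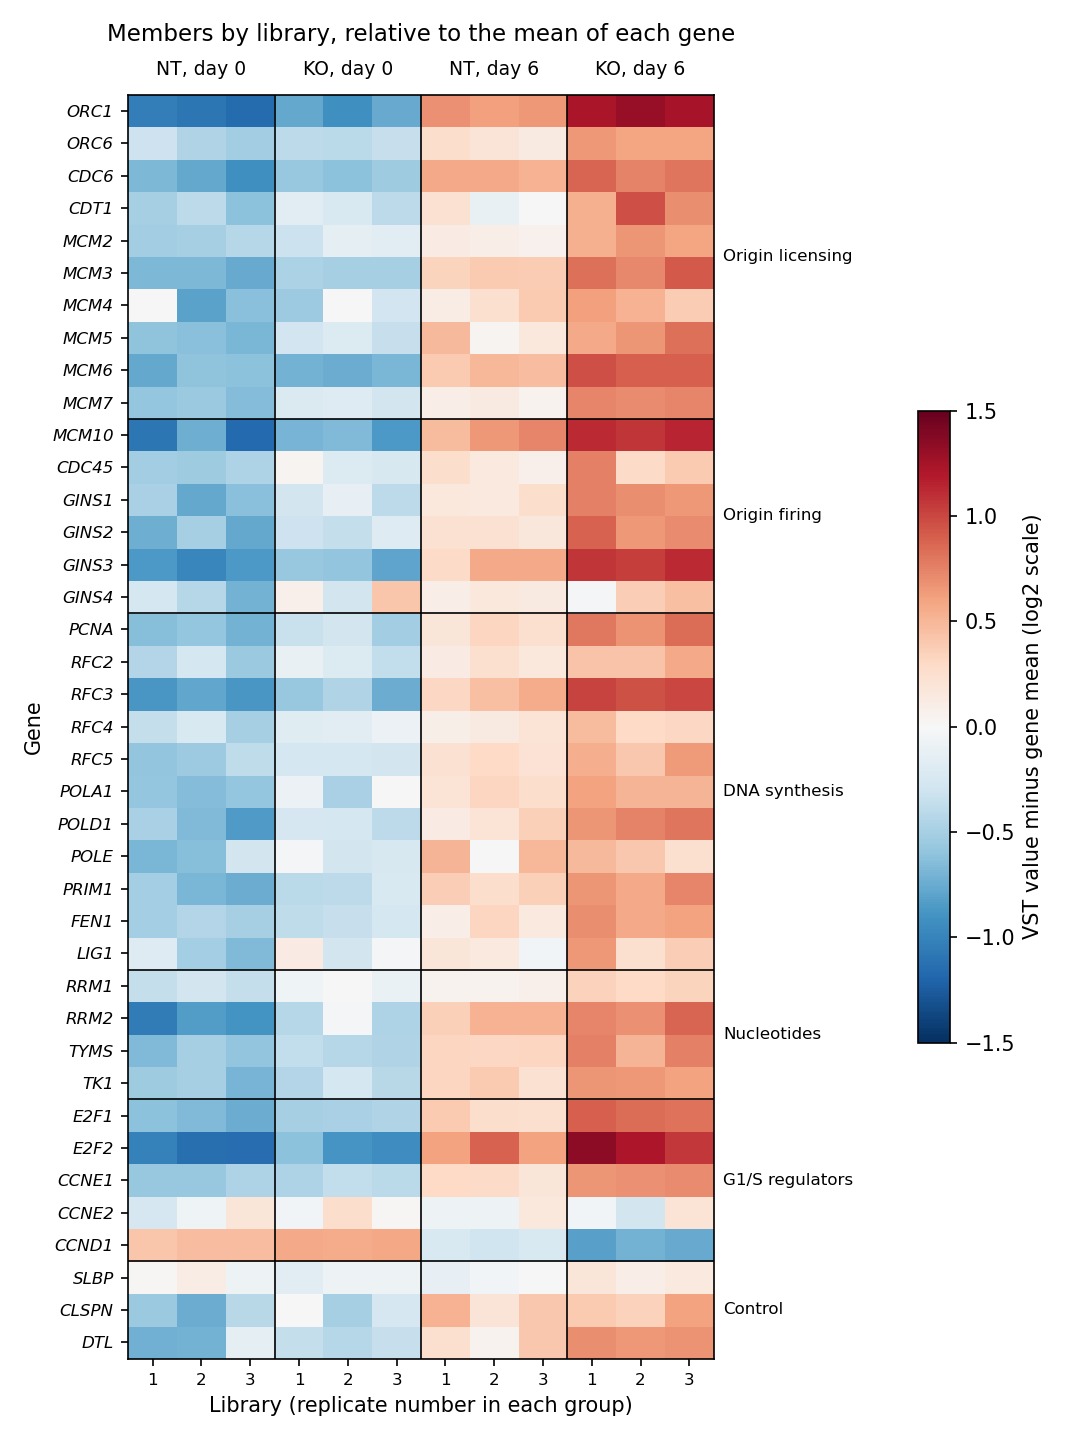
Heat map of the 39 genes (rows, grouped by role) in the 12 libraries (columns, 3 for each of the NT and KO groups on day 0 and day 6); colour is each log2-scale value minus the gene's mean over all libraries, limited at 1.5 in either direction. Most rows pass from blue in NT on day 0 to red in KO on day 6, and the CCND1 row runs the other way.

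On day 0, 17 of the 39 genes were higher in KO than in NT, a share of 43.6% where 7.42% of all genes tested were called higher. The limma count of lower genes was 0, also at an unadjusted p under 0.05, where 10.7% of all genes were called lower. The median difference was 0.25, against -0.004 for all genes, and in 28 genes every KO library lay above every NT library (15.1% of all genes). On day 6, 31 genes were higher in KO and CCND1 was lower, where 17.7% of all genes were called higher and 19.2% lower, and the median difference was 0.41, against 0.006 for all genes. The call was made on both days for 14 genes, on day 0 alone for CCND1, CDC45 and GINS4 in the upward direction, on day 6 alone for 17, and on neither day for CCNE2, CLSPN, LIG1, MCM4 and POLE. Of the 17 day 0 calls, 7 held under every alternative (GINS2, MCM2, MCM3, MCM7, POLD1, RRM1 and RRM2), and the count was 9 without replicate 1 of KO on day 0. It was 20 on the log2 scale of estimated counts plus 1, and 31 with libraries scaled to their total counts on the scale log2(CPM + 0.5), where scaling and scale changed together.

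From day 0 to day 6, a step called the OSKM difference below, 36 of the 39 genes rose in NT cells and 36 rose in KO cells, and CCND1 fell in both. Of all genes, 33.6% rose and 33.1% fell in NT, and 37.6% rose and 36.2% fell in KO, or 66.8% and 73.8% in either direction. The median difference was 0.86 in NT and 0.99 in KO. Each of these calls held under every alternative. In an alternative that both scaled libraries to their total counts and changed the scale to log2(CPM + 0.5), the median of all genes was 0.28 in NT and 0.28 in KO, against -0.002 and 0.011 as deposited, and the median of the 39 genes was 1.22 and 1.35. Under that alternative the calls over all genes split into 2197 higher and 888 lower on day 0, 3852 and 2308 on day 6, 7492 and 3086 for OSKM in NT, and 7481 and 3886 for OSKM in KO, against 1102 and 1596, 2636 and 2851, 4998 and 4925, and 5590 and 5379 as deposited.

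**Figure D2:**
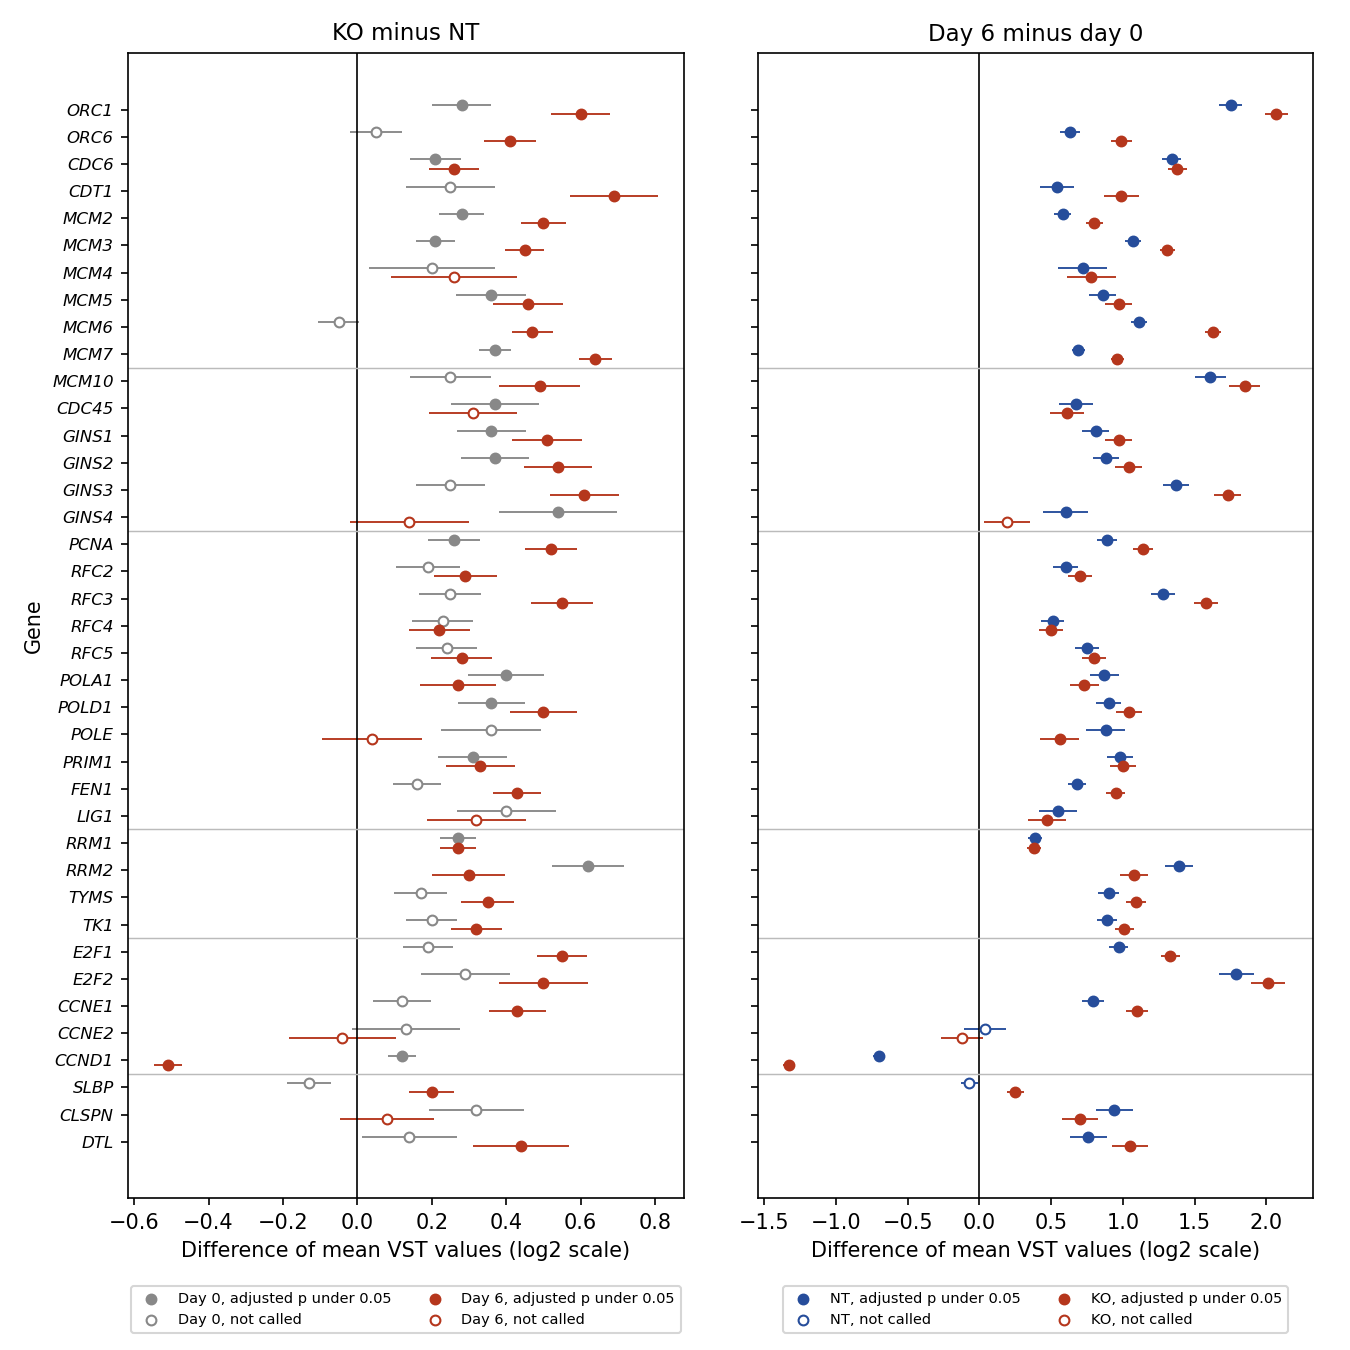
Differences of group means on the log2 scale (x axis) for the 39 genes (y axis, grouped by role), with bars of 1 standard error; the left panel gives KO minus NT on day 0 and on day 6 and the right panel day 6 minus day 0 in NT and in KO, with filled points for adjusted p under 0.05. Nearly all points lie to the right of 0, and CCND1 is the 1 filled point set to the left, on day 6 and in both OSKM comparisons.

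Of the 10 licensing genes, 6 were higher in KO on day 0 and 9 on day 6, with medians of 0.23 and 0.46, and all 10 rose under OSKM in NT and in KO. Of all genes, 7.42% and 17.7% were higher in KO on day 0 and day 6, and 33.6% and 37.6% rose in NT and in KO. The same shares apply to the role groups below. MCM7 (ENSG00000166508.18, chr7:100092728-100101940, minus strand), a subunit of the helicase ring, was the most abundant of the 6 ring subunits per kilobase of transcript in every group. On day 0 its estimated normalised counts were 1655, 1671 and 1568 in the NT libraries and 2142, 2161 and 2053 in the KO libraries. On day 6 they were 2662, 2736 and 2582 in NT and 4177, 4136 and 4188 in KO. The 4 groups do not overlap at any point. KO exceeded NT by 0.37 ± 0.04 (adjusted p = 5.19e-05) before OSKM and 0.64 ± 0.04 (adjusted p = 4.71e-08) on day 6, and the day 6 difference was larger by 0.27 ± 0.06 (adjusted p = 0.00707).

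MCM6 (ENSG00000076003.5, chr2:135839626-135876426, minus strand), another ring subunit, separated the days. The NT libraries held 846, 954 and 947 counts on day 0 and 1968, 2108 and 2058 on day 6. The KO libraries held 881, 859 and 902 and then 2947, 2803 and 2805. The day 0 groups overlap, and on day 6 the KO libraries all lie above NT. The difference was -0.05 ± 0.06 (adjusted p = 0.583) before OSKM and 0.47 ± 0.06 (adjusted p = 1.25e-05) on day 6, and the change between days of 0.52 ± 0.08 (adjusted p = 3.07e-04) was the largest of the licensing genes. MCM3 (ENSG00000112118.20, chr6:52264009-52284881, minus strand) was higher in KO on both days. Before OSKM, MCM3 stood at 1221, 1220.1 and 1154 counts in NT and 1407, 1383 and 1387 in KO. Under OSKM it stood at 2524, 2609 and 2597 in NT and 3548, 3299 and 3793 in KO. The groups of each day do not overlap. KO exceeded NT by 0.21 ± 0.05 (adjusted p = 0.0134) and 0.45 ± 0.05 (adjusted p = 1.11e-05), and the change between days of 0.24 ± 0.07 (adjusted p = 0.033) lost its call in 9 of the 12 fits that left out 1 library, with adjusted p from 0.0533 to 0.086. It kept the call without replicate 3 of NT on day 0, replicate 2 of NT on day 6 or replicate 2 of KO on day 6.

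The remaining ring subunits differed in how firmly they moved. MCM2 stood at 910.0 ± 31.4, 1115 ± 81.9, 1385 ± 27.6 and 1986 ± 93.5 counts (mean ± SD, n = 3) in NT and KO on day 0 and NT and KO on day 6, and was higher in KO by 0.28 ± 0.06 (adjusted p = 0.00533) and 0.50 ± 0.06 (adjusted p = 1.42e-05). MCM5, at 833 ± 26.5, 1083 ± 54.6, 1576 ± 265 and 2176 ± 201, was higher by 0.36 ± 0.09 (adjusted p = 0.0172) and 0.46 ± 0.09 (adjusted p = 0.00148). MCM4, at 1664 ± 538, 1885 ± 369, 2711 ± 266 and 3249 ± 279, had the widest spread of the ring subunits, and its KO differences of 0.20 and 0.26 (adjusted p = 0.468 and 0.258) were within it. Per kilobase, the ring was unevenly represented: the highest subunit, MCM7, exceeded the lowest by 2.34-fold in NT and 3.04-fold in KO on day 0, and by 2.35-fold and 2.57-fold on day 6. The lowest subunit was MCM5 in NT and MCM6 in KO on day 0, and MCM2 in both on day 6.

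CDT1 (ENSG00000167513.9, chr16:88803213-88809258, plus strand), which carries the ring to the origin, had the largest KO difference on day 6 on the deposited scale, though MCM7 exceeded it under quantile normalization. MCM7 also exceeded it in some fits that left out 1 library, such as that without replicate 2 of KO on day 6. Over those fits the difference ran from 0.58 to 0.80 for CDT1 and from 0.62 to 0.66 for MCM7. Counts of CDT1 were 217, 237 and 196 in NT and 288, 273 and 239.8 in KO fibroblasts. They were 396, 301 and 326 in NT and 499, 696 and 567 in KO cells on day 6. The groups do not overlap on either day, yet the spread on day 6 was wide. The KO minus NT difference was 0.25 ± 0.12 (adjusted p = 0.176) before OSKM and 0.69 ± 0.12 (adjusted p = 3.55e-04) on day 6. ORC1 (ENSG00000085840.13, chr1:52372829-52404459, minus strand), the origin recognition subunit that cycles with division in human cells, rose strongly under OSKM. On day 0 its estimated normalised counts were 106, 101 and 94 in the NT libraries and 138, 119 and 139 in the KO libraries. On day 6 they were 470.1, 447 and 458 in NT and 703, 751 and 713 in KO. Every step between groups was free of overlap. Its OSKM difference was 1.75 ± 0.08 (adjusted p = 4.16e-11) in NT and 2.07 ± 0.08 (adjusted p = 3.63e-12) in KO, and KO exceeded NT by 0.28 ± 0.08 (adjusted p = 0.0247) and 0.60 ± 0.08 (adjusted p = 3.45e-05). The day 0 call held in 8 of the 12 fits that left out 1 library.

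ORC6 (ENSG00000091651.9, chr16:46689643-46698394, plus strand), another subunit of that complex, was higher in KO on day 6 and not on day 0. The NT libraries held 396, 355 and 335 counts on day 0 and 619, 585 and 562 on day 6. The KO libraries held 372, 368 and 386 and then 821, 787 and 787. The KO libraries lay inside the NT range on day 0 and above it on day 6. The difference was 0.05 ± 0.07 (adjusted p = 0.692) and then 0.41 ± 0.07 (adjusted p = 3.90e-04), and the change of 0.36 ± 0.10 (adjusted p = 0.0204) fell to 0.33 (adjusted p = 0.0511) without replicate 3 of NT on day 6 and to 0.34 (adjusted p = 0.0505) without replicate 1 of KO on day 6. CDC6, the loading ATPase, stood at 453 ± 43.9, 532 ± 16.4, 1226 ± 24.7 and 1476 ± 69.7 counts, with KO higher by 0.21 ± 0.07 (adjusted p = 0.0423) and 0.26 ± 0.07 (adjusted p = 0.00835), the day 0 call holding in 3 of the 12 such fits. Its rise under OSKM was larger, at 1.34 in NT and 1.38 in KO (adjusted p = 1.67e-10 and 7.59e-11).

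Of the 6 genes that fire licensed origins, 4 were higher in KO on day 0 and 4 on day 6, with medians of 0.36 and 0.50, and from day 0 to day 6 all 6 rose in NT and 5 in KO. The exception was GINS4 (ENSG00000147536.12, chr8:41529206-41545046, plus strand), a subunit of the 4-part GINS complex. Before OSKM, GINS4 stood at 384, 338 and 266 counts in NT and 500.0, 379.6 and 648 in KO. Under OSKM it stood at 508, 532 and 524 in NT and 466, 625 and 660.3 in KO. Its groups overlap on both days and its KO libraries spread widely. KO differed from NT by 0.54 ± 0.16 (adjusted p = 0.0298) before OSKM and 0.14 ± 0.16 (adjusted p = 0.543) on day 6, and the day 0 difference ranged from 0.37 to 0.71 when single libraries were left out, and its call held in 8 of those 12 fits. The other GINS subunits were higher in KO on day 6, GINS1 at 532 ± 22.3 against 357 ± 16.5 counts, GINS2 at 590.3 ± 54.2 against 389 ± 12.1 and GINS3 at 749 ± 26 against 476 ± 59.3 (differences 0.51, 0.54 and 0.61, adjusted p = 6.12e-04, 3.47e-04 and 1.49e-04). Per kilobase GINS4 was the most abundant of the complex in both day 0 groups and GINS3 in both day 6 groups. CDC45, the helicase cofactor, stood at 179 ± 6.4, 247 ± 33.6, 315 ± 24.2 and 408 ± 83.3 counts and had a called KO difference of 0.37 ± 0.12 (adjusted p = 0.0428) before OSKM and 1 that missed the threshold, 0.31 ± 0.12 (adjusted p = 0.0515), on day 6, with the day 0 call held in 3 of the 12 fits that left out 1 library. On day 6 its difference ran from 0.17 to 0.41 over those fits and passed the threshold in 2 of them and in 6 of the 11 other alternatives. MCM10, which acts as the helicase starts, rose from 166 ± 35.9 to 611 ± 59.3 counts in NT and from 205 ± 18.7 to 880.3 ± 23.4 in KO, by 1.61 and 1.85 (adjusted p = 4.50e-09 and 5.88e-10).

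The 11 genes of DNA synthesis all rose under OSKM in both cell populations, and 4 were higher in KO on day 0 and 9 on day 6, with medians of 0.26 and 0.32. PCNA, the sliding clamp, stood at 889.5 ± 41, 1080.2 ± 99.6, 1696 ± 84.5 and 2452 ± 146 counts, and KO exceeded NT by 0.26 ± 0.07 (adjusted p = 0.0181) and 0.52 ± 0.07 (adjusted p = 4.70e-05). The clamp loader subunits differed: RFC3 had a KO difference of 0.55 ± 0.08 (adjusted p = 1.32e-04) on day 6 and an OSKM difference of 1.28 in NT, while RFC4 had 0.22 ± 0.08 (adjusted p = 0.0485) and 0.51. RFC2 and RFC5 lay between them on day 6, at 0.29 and 0.28 (adjusted p = 0.0145 and 0.0134). RFC5 overlaps WSB2 on the opposite strand over 437 bases, and how strand was used in the counting is not given. WSB2 averaged 2025 counts over all libraries and RFC5 376. Without replicate 3 of KO on day 6 the differences were 0.25 for RFC2, 0.23 for RFC5 and 0.29 for PRIM1 (adjusted p = 0.0652, 0.0673 and 0.0547), and RFC2 also missed the threshold without replicate 1 of NT on day 6 (0.27, adjusted p = 0.0546). RFC2 was the most abundant loader subunit per kilobase in all groups, and the spread from lowest to highest narrowed from 2.38-fold and 2.24-fold in NT and KO on day 0 to 1.65-fold in both on day 6.

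Among the polymerases, POLD1, the catalytic subunit of polymerase delta on the lagging strand, was higher in KO by 0.36 ± 0.09 (adjusted p = 0.0118) and 0.50 ± 0.09 (adjusted p = 5.09e-04). POLA1 and PRIM1, catalytic subunits of the polymerase alpha-primase that lays down primers, were higher by 0.40 and 0.31 on day 0 and 0.27 and 0.33 on day 6 (adjusted p = 0.0129, 0.0348, 0.0489 and 0.0126). The day 6 calls for POLA1 and for RFC4 each held in 2 of the 12 fits that left out 1 library, with adjusted p up to 0.138 and 0.192. POLE, the leading-strand catalytic subunit, stood at 621 ± 108, 807 ± 84.5, 1194 ± 236 and 1213 ± 110.0 counts, and its KO differences of 0.36 ± 0.14 (adjusted p = 0.0819) and 0.04 ± 0.14 (adjusted p = 0.856) missed the threshold. FEN1 and LIG1 trim and seal Okazaki fragments. FEN1 lay between 1088 and 1273 counts in NT and between 1511 and 1660.3 in KO on day 6 and was higher in KO on day 6 by 0.43 ± 0.07 (adjusted p = 1.31e-04), and LIG1, at 372 ± 71.8, 506 ± 75.3, 566 ± 52.4 and 725 ± 117, differed by 0.32 ± 0.13 (adjusted p = 0.0723).

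The 4 enzymes of deoxynucleotide supply were all higher in KO on day 6, and RRM1 and RRM2 were also higher on day 0. RRM2 (ENSG00000171848.16, chr2:10120698-10131419, plus strand), the small subunit of ribonucleotide reductase that is made in S phase, had the largest KO difference of the 39 genes on day 0 in the fit of all libraries. With 1 library left out, that difference ran from 0.48 to 0.69, and that of GINS4 from 0.37 to 0.71. GINS4 exceeded RRM2 in some of those fits, such as that without replicate 2 of KO on day 0. Counts of RRM2 were 882, 1016 and 981 in NT and 1376, 1822 and 1339.8 in KO fibroblasts. They were 2407, 2707 and 2712 in NT and 3166, 3043 and 3485 in KO cells on day 6. Its groups do not overlap on either day. KO exceeded NT by 0.62 ± 0.10 (adjusted p = 5.58e-04) before OSKM and 0.30 ± 0.10 (adjusted p = 0.0252) on day 6, and the day 6 difference was 0.25 (adjusted p = 0.105) without replicate 1 of NT on day 6 and 0.25 (adjusted p = 0.102) without replicate 3 of KO on day 6. RRM1, the large subunit, moved by equal steps, at 1335 ± 52.6, 1623 ± 57.4, 1766 ± 21.3 and 2136 ± 37.3 counts, with KO differences of 0.27 ± 0.05 (adjusted p = 0.00124) and 0.27 ± 0.05 (adjusted p = 5.21e-04). The ratio of RRM2 to RRM1 per kilobase was 0.644 ± 0.037 in NT and 0.833 ± 0.118 in KO on day 0 and 1.32 ± 0.076 and 1.36 ± 0.092 on day 6 (SD, n = 3; the ratio was chosen after its values were seen). The day 6 ratios overlap.

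TYMS, thymidylate synthase, stood at 569 ± 35.3, 644 ± 21, 1109 ± 4.84 and 1437 ± 143 counts, and TK1, the thymidine kinase of the salvage route, at 695 ± 52.9, 808 ± 55.4, 1334 ± 77.5 and 1684 ± 41.3. On day 6 KO exceeded NT by 0.35 and 0.32 (adjusted p = 0.00131 and 0.00174), and the day 0 differences were 0.17 and 0.20 (adjusted p = 0.128 and 0.0524). TYMS overlaps ENOSF1 on the opposite strand over 3255 bases, and how strand was used in the counting is not given in the sources used here. ENOSF1 averaged 351 counts over all libraries and TYMS 940, and without strand the reads of the shared stretch cannot be told apart.

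The 5 genes of G1/S control split. E2F1 (ENSG00000101412.13, chr20:33675683-33686404, minus strand), the activator whose targets include many of these genes, rose with them. On day 0 its estimated normalised counts were 322, 309 and 289.9 in the NT libraries and 353, 357 and 366 in the KO libraries. On day 6 they were 700.0, 638 and 626 in NT and 1019, 973 and 957 in KO. The groups do not overlap on either day. The KO minus NT difference was 0.19 ± 0.07 (adjusted p = 0.06) on day 0 and then 0.55 ± 0.07 (adjusted p = 1.66e-05), and the change between days was 0.36 ± 0.09 (adjusted p = 0.0156). E2F2 (ENSG00000007968.7, chr1:23506430-23531220, minus strand), a related activator, was the lowest of the 39 genes on day 0. By estimated counts it had the largest fold change under OSKM of the 39 genes, 7.81-fold in NT and 7.63-fold in KO, against 4.55-fold and 5.47-fold for ORC1. The NT libraries held 27.4, 22.8 and 22.3 counts on day 0 and 172, 221 and 174 on day 6. The KO libraries held 48.7, 33.5 and 31.2 and then 321, 289.6 and 256. The days are far apart and the KO and NT libraries do not overlap. KO exceeded NT by 0.29 ± 0.12 (adjusted p = 0.119) on day 0, which was not called, and by 0.50 ± 0.12 (adjusted p = 0.00438) on day 6. On the deposited scale, which compresses low counts, its OSKM difference was 1.79 ± 0.12 (adjusted p = 4.50e-09) in NT and 2.01 ± 0.12 (adjusted p = 7.88e-10) in KO, and per kilobase its ratio to E2F1 went from 0.0379 and 0.0511 in NT and KO to 0.14 and 0.141.

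CCND1 (ENSG00000110092.4, chr11:69641087-69654474, plus strand), cyclin D1, was the 1 gene of the 39 lower in KO on day 6 and the 1 gene that fell under OSKM. Before OSKM, CCND1 stood at 14577, 15010.0 and 15035 counts in NT and 16189, 16015 and 16342 in KO. Under OSKM it stood at 9279.5, 8846 and 9255 in NT and 6142, 6651 and 6414 in KO. It is slightly above NT in KO fibroblasts and well below NT in KO cells under OSKM, with no overlap on either day. The difference was 0.12 ± 0.04 (adjusted p = 0.0406) before OSKM and -0.51 ± 0.04 (adjusted p = 1.10e-07) on day 6, and the change between days was -0.63 ± 0.05 (adjusted p = 2.01e-06). From day 0 to day 6 it fell by 0.70 in NT and 1.33 in KO (adjusted p = 3.98e-10 and 1.43e-13). The small day 0 call was lost in each fit without 1 of the 6 day 0 libraries, with adjusted p from 0.0624 to 0.121. CCNE1, cyclin E1, moved the other way, at 142 ± 7.91, 159 ± 6.53, 283 ± 13.4 and 399 ± 7.08 counts, with KO differences of 0.12 ± 0.08 (adjusted p = 0.325) and 0.43 ± 0.08 (adjusted p = 5.44e-04). Cyclin D1 exceeded cyclin E1 per kilobase by 49.7-fold and 48.4-fold in NT and KO on day 0 and by 15.3-fold and 7.61-fold on day 6, ratios chosen after the values were seen. CCNE2 stood at 72.3 ± 17.6, 82.4 ± 14.3, 75.3 ± 11.9 and 73.2 ± 19 counts and met the threshold in none of the 5 comparisons (lowest adjusted p = 0.483). It overlaps the more abundant INTS8 on the opposite strand.

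The 3 S-phase accessory genes gave a limma count of 0 calls between KO and NT on day 0, with CLSPN alone at an unadjusted p under 0.05. SLBP (ENSG00000163950.13, chr4:1692800-1712555, minus strand), which binds the stem-loop of replication-dependent histone mRNAs, stayed within a narrow band. Counts of SLBP were 1128, 1200.0 and 1048 in NT and 980.4, 1045 and 1052 in KO fibroblasts. They were 1018, 1077 and 1099 in NT and 1270.3, 1193 and 1229.6 in KO cells on day 6. On day 0 the groups overlap, with the KO mean below NT, and on day 6 every KO library lies above NT. The difference was -0.13 ± 0.06 (adjusted p = 0.174) and then 0.20 ± 0.06 (adjusted p = 0.0174), a change of 0.33 ± 0.09 (adjusted p = 0.0145), and the day 6 call was lost without replicate 1 of NT (0.17, adjusted p = 0.0735) or replicate 1 of KO (0.18, adjusted p = 0.0663). In NT its OSKM difference was -0.07 ± 0.06 (adjusted p = 0.287) as deposited and 0.21 (adjusted p = 0.00769) under total-count scaling on the scale log2(CPM + 0.5). DTL, the substrate adaptor that targets CDT1 for destruction in S phase, stood at 357 ± 98.8, 392 ± 14.3, 633 ± 83.3 and 872 ± 12.3 counts and was higher in KO on day 6 by 0.44 ± 0.13 (adjusted p = 0.0149), or 0.35 (adjusted p = 0.0705) without replicate 2 of NT on day 6. CLSPN, which relays the replication checkpoint signal to CHK1, stood at 271 ± 36.7, 353 ± 69.4, 570.5 ± 70.3 and 604 ± 64.1, with a day 6 difference of 0.08 ± 0.13 (adjusted p = 0.677).

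**Figure D3:**
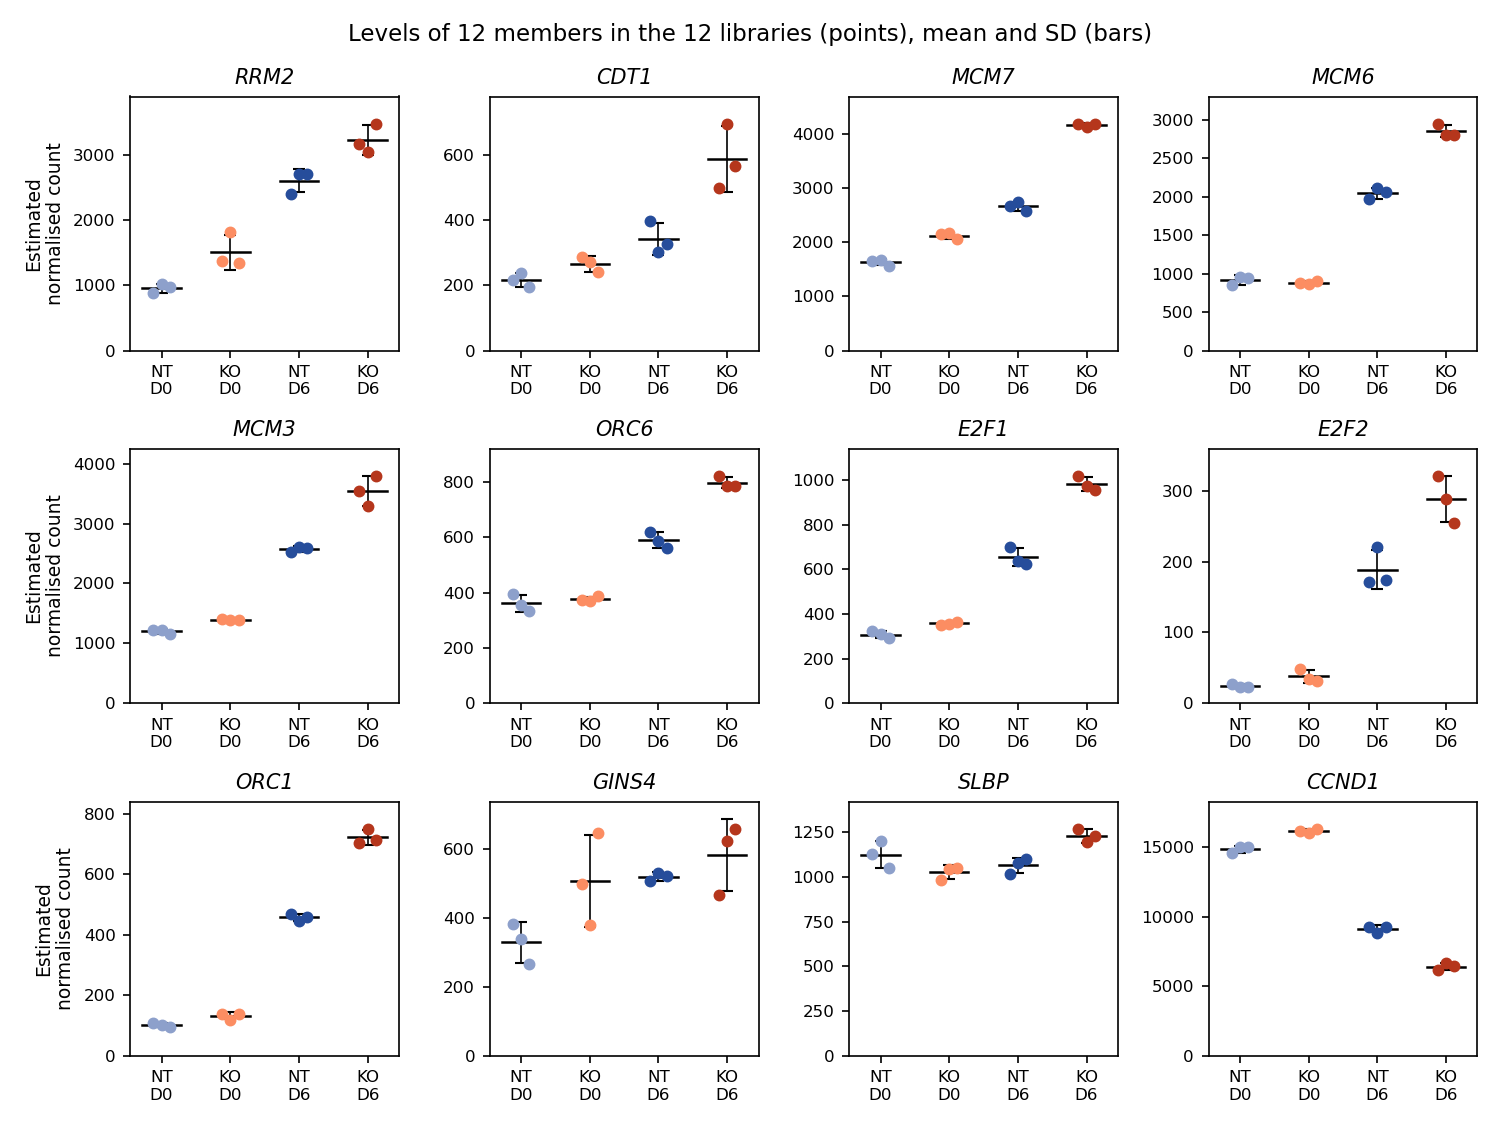
Estimated normalised counts (y axis, linear from 0) of 12 named genes in each library (points), by group (x axis), with the mean and SD of 3 libraries as a bar and whisker mark. MCM6, ORC6 and SLBP have overlapping NT and KO points on day 0 and separate ones on day 6, and CCND1 falls below NT in KO on day 6.

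The interaction, KO minus NT on day 6 less the same on day 0, was called higher for 6 of the 39 genes (MCM3, MCM6, MCM7, ORC6, E2F1 and SLBP) and lower for CCND1, where 9.07% of all genes were called higher and 11.2% lower. The 7 calls are 17.9% of the genes, near the 20.3% over all genes, so the share called is not particular to them. Of the 6, 4 are among the 10 licensing genes. The 2 KO comparisons use separate libraries, but the interaction shares libraries with both and with the OSKM comparisons.

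The promoters of these genes were searched for the short sequences through which E2F and the cell cycle complexes are known to act. The genes were chosen by name and many are known E2F targets, so matches were likely whatever the RNA did. A link between matches and RNA was not tested. RefSeq windows of 250 bases before to 50 bases after the start (GRCh38.p14) were matched for 34 of the 39 genes, without CCND1, MCM5, MCM4, GINS4 and CCNE2. An E2F-type match, meaning the letters TTCCCGC or the variants that read TTGGCGC or else TTCGCGC or lastly TTGCCGC on either strand, was present in 25 of 34 windows (73.5%), in 13.0% of 35114 windows of all genes and in 16.1% of 22197 windows of protein-coding genes. TTGGCGC and TTCGCGC can match the same bases on opposite strands. A CCAAT box was in 58.8% of the 34 windows and 34.6% of all. The CHR element, TTTGAA or TTCGAA, was in 2 of the 34 (5.88%) and in 16.4% of all. These are matches of letters and say nothing of binding.

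The stretches below are from genes chosen by a rule, where the window held a match. The rule took the 2 genes with the largest called KO difference per direction on each day, and the genes called in the interaction. Other windows with a match, such as that of ORC1, are not printed. The stretches are printed 5′ to 3′ on the gene's strand with E2F-type matches in capitals, showing those that lie wholly before the RefSeq start. They are chr16:88803729-88803788, plus strand for CDT1, chr7:100101398-100101609, minus strand for MCM7, chr2:135876498-135876619, minus strand for MCM6, chr20:33686386-33686443, minus strand for E2F1 and chr6:52284743-52284940, minus strand for MCM3.
CDT1: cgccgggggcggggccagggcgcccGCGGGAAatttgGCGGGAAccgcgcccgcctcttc
MCM7: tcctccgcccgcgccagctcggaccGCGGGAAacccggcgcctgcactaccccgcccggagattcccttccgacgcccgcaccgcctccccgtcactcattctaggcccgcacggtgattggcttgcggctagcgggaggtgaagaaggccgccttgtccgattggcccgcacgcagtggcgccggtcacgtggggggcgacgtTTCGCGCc
MCM6: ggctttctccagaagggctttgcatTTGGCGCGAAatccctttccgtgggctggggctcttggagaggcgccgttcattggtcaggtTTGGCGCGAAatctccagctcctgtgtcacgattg
E2F1: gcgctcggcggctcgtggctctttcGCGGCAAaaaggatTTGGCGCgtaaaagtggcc
MCM3: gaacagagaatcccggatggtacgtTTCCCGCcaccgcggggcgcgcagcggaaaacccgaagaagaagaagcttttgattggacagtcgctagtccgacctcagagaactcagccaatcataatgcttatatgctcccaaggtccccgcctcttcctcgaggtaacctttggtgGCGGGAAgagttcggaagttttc
The MCM6 stretch holds 2 copies of a run in which TTGGCGC and the reverse complement of TTCGCGC overlap, and the other stretches show 2 separate matches each. The MCM7 and MCM3 windows each hold another match that crosses the start and is therefore not shown in full, and the one in MCM7 overlaps the last match printed. The windows of RRM2, ORC6 and SLBP, which met the same rule, held no such match, and RRM2 and ORC6 held 3 and 2 CCAAT boxes.

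**Figure D4:**
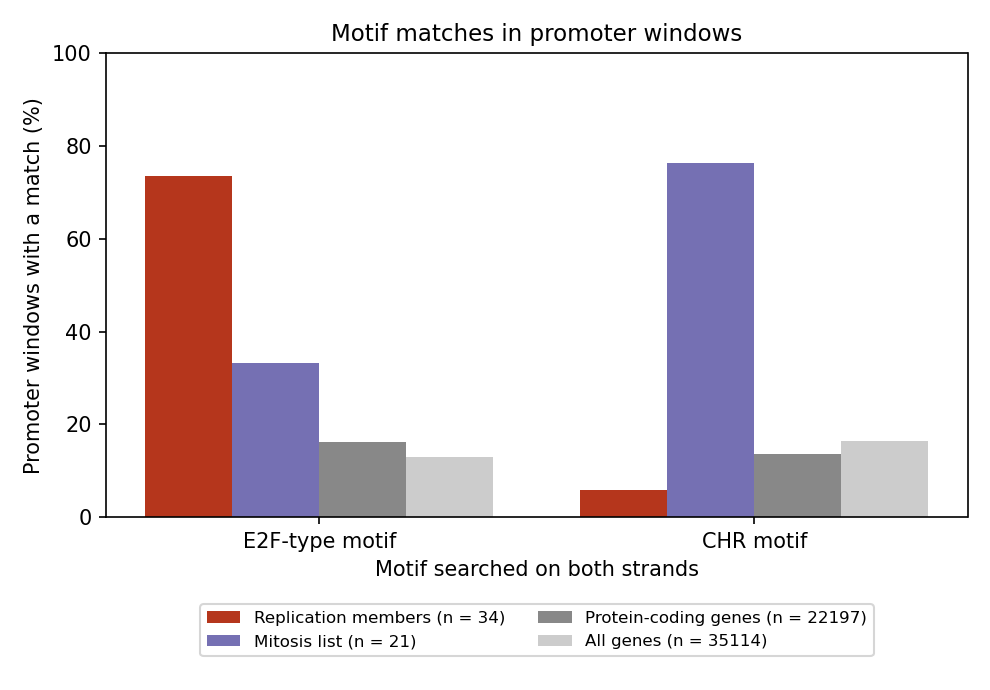
Percent of RefSeq promoter windows (y axis) that hold an E2F-type match or a CHR element (x axis) for the replication genes (34 windows), the mitosis genes (21), protein-coding genes and all genes. The E2F-type bar is tallest for the replication genes at 73.5%, and the CHR bar for the mitosis genes at 76.2%.

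Mitosis genes, the program that follows replication, gave the nearest comparison. Of 26, 22 were higher in KO on day 0 (84.6%) with a median of 0.39 and 19 on day 6 (73.1%) with a median of 0.32. The replication genes went from 17 of 39 (43.6%) and 0.25 to 31 of 39 (79.5%) and 0.41. The share of all genes called higher was 7.42% on day 0 and 17.7% on day 6. The median interaction was -0.08 for the mitosis genes and 0.16 for the replication genes. Of the mitosis genes, 1 was called higher and 4 lower (3.85% and 15.4%, against 9.07% and 11.2% of all genes). The difference between the lists was not tested. Their windows differ as well: 16 of 21 mitosis windows held the CHR element and 7 of 21 (33.3%) an E2F-type match. A CCAAT box was in 17 of the 21 (81%), a higher share than the 58.8% of the replication windows.

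Outside the 39 genes, a second list held 39 other replication genes. Of these, 10 were higher in KO on day 0 (25.6%, median 0.13) and 21 on day 6 (53.8%, median 0.26), with 1 lower on day 6, against 7.42% and 17.7% of all genes called higher. On day 0 the largest were POLA2 (0.55), the regulatory subunit of polymerase alpha, TOP2A (0.52), the decatenating topoisomerase, and CDC7 and DBF4 (0.43 and 0.43), the kinase and its activator that fire origins. On day 6 they were CHTF18 (0.77), of an alternative clamp loader, POLA2 (0.64), RPA3 (0.63), of the single-strand binding complex, and WDHD1 (0.53). Of 31 other genes of nucleotide metabolism, 3 were higher and 9 lower in KO on day 0 (9.68% and 29%, against 7.42% and 10.7% of all genes). On day 6, 8 were higher and 7 lower (25.8% and 22.6%, against 17.7% and 19.2% of all genes). SHMT1, a folate enzyme, was higher on day 0 (0.52), whereas IMPDH1 of guanine synthesis (-0.48), CTPS1 of CTP synthesis (-0.47) and NME2 (-0.41) were lower. On day 6 the dNTP hydrolase SAMHD1 was higher (0.61) and MTHFD2 (-0.53), TK2 (-0.48) and CAD (-0.44), the enzyme that begins pyrimidine synthesis, were lower.

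Among 18 other G1/S genes, 2 were higher and 1 lower in KO on day 0 (11.1% and 5.56%), near the shares of all genes (7.42% and 10.7%), and 11 higher and 3 lower on day 6 (61.1% and 16.7%, against 17.7% and 19.2%). E2F7, a repressor of the E2F program, changed sides, from 0.56 on day 0 to -0.49 on day 6 (adjusted p = 5.96e-05 and 5.97e-05). CDK6, a partner of cyclin D, was lower on both days (-0.43 and -0.76), CCND2 was lower on day 6 (-0.57), CCNA2 was higher on day 0 (0.48) and MYBL2 higher on day 6 (0.47). Of 12 pocket proteins and CDK inhibitors, 4 were higher and 3 lower on day 0 (33.3% and 25%), and 2 and 2 on day 6 (16.7% each), the latter at the shares of all genes. CDKN2B, an inhibitor of CDK4 and CDK6, fell by 0.82 and 1.11, and CDKN1A, which binds CDKs and PCNA, fell by 0.53 and 0.68. CDKN1C and CDKN2C were higher on day 0 (0.58 and 0.57), and CDKN1B and LIN54, a DNA-binding subunit of the complex that reads CHR elements, on day 6 (0.34 and 0.21).

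Of 13 checkpoint genes tested, 2 were higher and 1 lower in KO on day 0 (15.4% and 7.69%, against 7.42% and 10.7% of all genes, a difference of about 1 gene). On day 6, 4 were higher (30.8%, against 17.7%). RAD9A of the checkpoint clamp and WEE1, the inhibitory kinase of CDK1, were higher on both days (0.47 and 0.39, then 0.35 and 0.47), ATRIP was lower on day 0 (-0.35), and CHEK1 and RAD17 were higher on day 6 (0.31 and 0.20). Of 13 genes of replication-coupled chromatin assembly, 4 were higher and 2 lower on day 0 (30.8% and 15.4%, against 7.42% and 10.7% of all genes). On day 6, 7 were higher and 1 lower (53.8% and 7.69%, against 17.7% and 19.2%). ASF1B, a histone chaperone, was higher on both days (0.37 and 0.44), as was NASP (0.25 and 0.38). CHAF1A and CHAF1B, of the assembly factor that PCNA recruits, were higher on day 6 (0.54 and 0.44), UHRF1 was higher on day 0 (0.52), and LSM11, of the machinery that processes histone mRNA, was lower on day 0 (-0.34).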

How the data were processed

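The deposited table holds variance-stabilised values on a log2 scale from DESeq2 for 60660 genes in 12 libraries, of poly-A RNA prepared as stranded libraries per the labels, with STAR, Salmon and GRCh38 named in the submitters' processing notes. No source used here gives their versions, the annotation release or the use of strand. The floor of 4.85 stands for 0 reads, and estimated normalised counts were computed back with the transformation's parametric formula. That assumption affects levels and the alternatives fitted on estimated counts or CPM, but not the main tests. After scaling, too few low values came within 0.1 of whole reads for a count test. Depth is therefore an estimate, and the spread between 3 libraries per group sets the precision.

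Differences were fitted in limma 3.58.1 under R 4.3.3, with trended variances and all 4 groups in 1 fit, over the 14858 genes whose mean was at least 1 above the floor (about 14.4 counts). Tests were 2-sided with Benjamini-Hochberg adjustment, called below 0.05, in 5 comparisons, and the code was tested on simulated data. Levels per kilobase used the principal transcript in GENCODE 29 on GRCh38, which also gave the coordinates. Alternatives covered the filter, scaling, scale, variance model, samples in the fit, a replicate block and each library left out; total-count scaling, on the scale log2(CPM + 0.5), was added after seeing the data. The genes, lists and tests were chosen with earlier results of these data known. Libraries were named in full for the 2 genes with the largest called difference per direction in each comparison, genes called against most others, and genes called in the interaction, and other lists by up to 4 called genes of largest difference. One listed checkpoint gene found no match and is not reported here.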

Additional observations from a re-analysis of the deposited data

Results flagged for a closer look

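The KO minus NT difference itself changed between day 0 and day 6, by limma's interaction test with Benjamini-Hochberg adjustment, for 7 of the 39 genes. It was larger on day 6 for MCM6 (0.52, adjusted p = 0.000307), ORC6 (0.36, adjusted p = 0.0204), E2F1 (0.36, adjusted p = 0.0156), SLBP (0.33, adjusted p = 0.0145), MCM7 (0.27, adjusted p = 0.00707) and MCM3 (0.24, adjusted p = 0.033). For CCND1 it turned from higher to lower in KO, a change of -0.63 (adjusted p = 2.01e-06). The libraries behind each value are given with these genes above. Groups of 3 libraries were not tested for single outlying values.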

How the results depend on the processing

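Within a comparison, no called gene of the 39 changed direction under any alternative tried. The 37 calls for the OSKM difference in NT and the 37 in KO held under all of them, as did 24 of 32 KO calls on day 6, 7 of 17 on day 0 and 5 of 7 in the interaction (not MCM3 and ORC6). The number of genes higher in KO on day 0 was 17, became 10 when only the groups compared were fitted, and ran from 9 to 18 when 1 library was left out. Total-count scaling on the scale log2(CPM + 0.5), which changes scaling and scale together, gave 31 (log2 of counts plus 1 alone gave 20), and median differences of 0.37 and 0.52 for KO on day 0 and day 6, and 1.22 and 1.35 for OSKM in NT and KO. SLBP turned from -0.07 to 0.21 (adjusted p = 0.00769) for OSKM in NT under that alternative, where the median of all genes was 0.28. In the interaction, genes called lower ran from 1 to 2, since POLE was also called (-0.49) without replicate 2 of NT on day 6. Replicate numbers did not pair the libraries (correlations of deviations from -0.05 to 0.06), and a replicate block gave 20 and 31 higher on day 0 and day 6 and 36 for OSKM in NT and in KO. Counting error weighs most on E2F2, at 24.2 counts in NT on day 0.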
